A study of Equus caballus with 8 samples.

Results

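The genes described here encode the enzymes that build cholesterol and fatty acids, the regulators that set their transcription and a cytosolic sterol carrier. Their messenger RNA was measured in the endometrium of mares, on Day 12 after ovulation, in pregnancy and in the cycle. The list holds 29 genes, chosen by name and pathway role, and 28 of them were found by symbol among the 24942 Gene IDs of the count table, each with at least 10 reads in total. IDI1 matched no symbol in the gene table used and was not analysed here. All 28 passed the filter on low counts, with the lowest count of any of them in any library being 12 reads, for HSD17B7.

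The pregnant group holds 4 biopsies, 1 from each of 4 Bavarian Warmblood mares on Day 12 of pregnancy, taken after an embryonic vesicle had been seen by ultrasound and flushed out. The cyclic group holds 4 biopsies of the same mares on Day 12 of the cycle, also taken after a flush, with the order of the 2 states random within each mare. The mares thus serve as 4 biological replicates, each with a pair of libraries. All mares received 1500 IU of human chorionic gonadotropin to induce ovulation and were inseminated 24 h later with semen of the same stallion, and the labels do not say whether this also held for the sampled cycle of the cyclic group. Ages are not stated. A biopsy holds surface and gland epithelium, stroma, vessels and immune cells together.

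Cholesterol is made from acetyl-CoA through mevalonate, farnesyl diphosphate, squalene and lanosterol, and fatty acids are made from the same acetyl-CoA through malonyl-CoA. The transcription factors SREBP-1 and SREBP-2 drive both pathways. They are held in the endoplasmic reticulum with their escort SCAP by the INSIG proteins when sterols are plentiful, and are carried by SCAP to the Golgi and cut free when sterols are scarce. In the horse the conceptus is still mobile in the uterine lumen on this day and depends on the secretions of the endometrium.

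Libraries held 15.5 to 16.7 M reads assigned to genes, apart from the pregnant library of mare 1, which held 9.81 M. Levels are given as CPM, the share of a library's reads that fell on a gene, with library sizes scaled by TMM, a trimmed mean of log ratios between libraries. CPM are not corrected for gene length, so each gene is compared with itself between biopsies and not with other genes. A gene is said to have risen or fallen where edgeR's quasi-likelihood test with the mare in the model gave an adjusted p below 0.05 (Benjamini-Hochberg, over 15342 genes tested).

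In pregnancy 5 of the 28 genes fell and 0 rose. The sterol carrier STARD4 fell to 0.556 of its cyclic level, and the regulators SREBF1 and SCAP, the fatty acid synthase FASN and the mevalonate pathway kinase PMVK fell to 0.742 to 0.764 of theirs. In these biopsies fewer cells of a type and less RNA per cell cannot be told apart. The 5 are 17.9% of the 28 genes, against 8.19% of all genes tested that fell, and 8.53% of all genes tested rose. The difference between these shares was not tested, since the gene list was drawn up with earlier results of these data known. The median log2 fold change (pregnant over cyclic) was -0.18 over the 28 genes and 0.0042 over all genes tested, and 20 of the 28 had a value below 0, against 49.2% of all genes. DESeq2 and limma-voom also found 0 risers, and by edgeR at an unadjusted p under 0.05, 11 genes were lower and 1, FDFT1, was higher, beside 15.1% of all genes tested that were lower and 15.5% that were higher at that threshold. Without the mare as replicate block 1 gene, STARD4, passed, and leaving out mare 1, the source of the shallowest library, left 3 that passed (FASN, SCAP and STARD4).

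**Figure D1:**
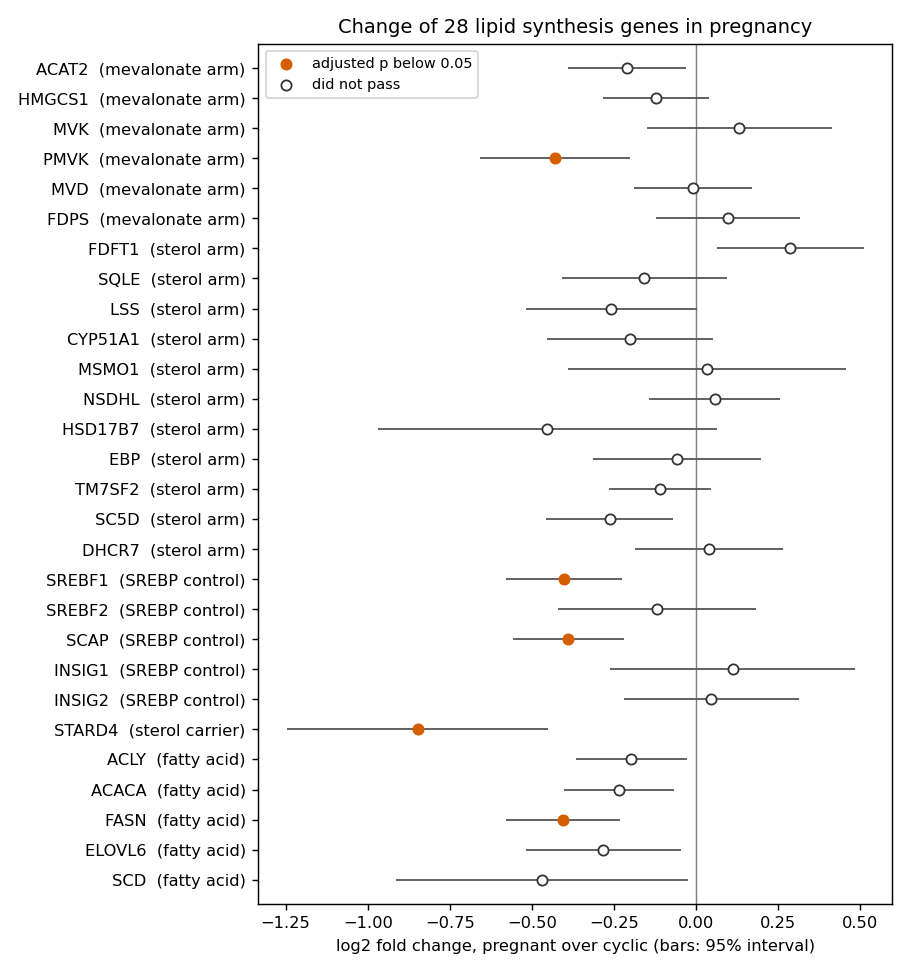
Log2 fold change of each of the 28 genes, pregnant over cyclic, from the fit with the mare in the model (4 mares); bars are 95% intervals, and filled points passed at an adjusted p below 0.05. The 5 filled points (PMVK, SREBF1, SCAP, STARD4 and FASN) all lie below 0, and the 5 fatty acid enzymes at the bottom all have point values from -0.47 to -0.20.

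Among the 5 regulators, 2 fell and 3 did not pass. SREBF1 (Gene ID 100052283), the gene of SREBP-1, which drives mainly the fatty acid genes, had 199.9, 207, 224 and 232 CPM in the pregnant libraries of mares 1 to 4, against 271, 243, 328 and 305 CPM in their cyclic libraries. Every pregnant value lay below every cyclic value, with group means of 216 ± 14.9 CPM in pregnancy and 287 ± 37.6 CPM in the cycle (SD, n = 4 each). Its log2 fold change was -0.40 ± 0.08 (SE; adjusted p = 0.00857). SREBF1 no longer passed with mare 1 left out (adjusted p = 0.0574) or with no mare block (adjusted p = 0.084).

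SCAP (100054081), the escort of both SREBPs, had 266, 238, 227 and 242 CPM in the pregnant libraries, against 334, 333, 276.5 and 332.5 CPM in the cyclic libraries of mares 1 to 4. The groups did not overlap, and the low cyclic value of mare 3 was still above the highest pregnant value. The log2 fold change of SCAP was -0.39 ± 0.08 (SE; adjusted p = 0.00809), and the within-mare log2 ratios ran from -0.48 to -0.28. That call was lost in 1 of 12 alternatives, the fit without the mare block (adjusted p = 0.0673).

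The other regulators had values on both sides of 0. SREBF2 (100070704), the gene of SREBP-2, which drives mainly the sterol genes, averaged 204 ± 34.5 CPM in pregnancy and 224 ± 56.6 CPM in the cycle (log2 fold change -0.12, 95% interval -0.42 to 0.18; adjusted p = 0.587). Its pregnant value was lower in mares 2 and 4 and higher in mares 1 and 3. INSIG1 (100065774), a retention protein that is itself a classical target of SREBPs, averaged 94.2 ± 24.7 CPM in pregnancy and 85.6 ± 11.3 CPM in the cycle (95% interval of the log2 fold change -0.26 to 0.49). INSIG2 (100049957), its relative, averaged 27.6 ± 3.40 CPM in pregnancy and 26.8 ± 5.01 CPM in the cycle (-0.22 to 0.31). The 95% intervals of SREBF2, INSIG1 and INSIG2 all lay within a 1.5-fold change in either direction.

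STARD4 (100073191), which carries cholesterol between membranes through the cytosol, had 9.94, 6.96, 7.65 and 7.16 CPM in the pregnant libraries of mares 1 to 4, against 11.3, 16.1, 12.8 and 16.7 CPM in their cyclic libraries. No pregnant value reached a cyclic value, but mare 1 differed little, with a log2 ratio of -0.17 against -1.16 to -0.71 in the other mares. Its log2 fold change was the largest of the 28 genes in size, -0.85 ± 0.17 (SE; adjusted p = 0.0123). STARD4 passed in 12 of 12 alternatives, with adjusted p from 0.00138 to 0.0475 and the highest without mare 4. Group means were 7.93 ± 1.37 CPM in pregnancy and 14.2 ± 2.60 CPM in the cycle.

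Of the 5 fatty acid enzymes, 1 fell and 4 did not pass, and all 5 had a lower pregnant value in each of the 4 mares. FASN (100057311), the multienzyme that assembles palmitate, had 586, 432, 512 and 664 CPM in the pregnant libraries of mares 1 to 4, against 712, 577, 713 and 903 CPM in their cyclic libraries. Values of the groups overlapped, with mare 2 lowest and mare 4 highest in both states, while the within-mare log2 ratios were close together at -0.48 to -0.28. The log2 fold change of FASN was -0.41 ± 0.08 (SE; adjusted p = 0.00761). It passed in 11 of 12 alternatives and was lost without the mare block (adjusted p = 0.23).

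The enzymes before and after FASN had values in the same direction that missed the threshold. ACLY (100053195), which makes cytosolic acetyl-CoA from citrate, averaged 115 ± 8.32 CPM in pregnancy and 132 ± 19.6 CPM in the cycle (adjusted p = 0.107). ACACA (100071472), the acetyl-CoA carboxylase that makes malonyl-CoA, averaged 76.3 ± 16.0 CPM in pregnancy and 89.1 ± 14.1 CPM in the cycle (adjusted p = 0.061), and it passed after thinning of all libraries to equal depth (0.0447) and with no filter on low counts (0.046). ELOVL6 (100072829), which lengthens palmitate to stearate, averaged 14.9 ± 1.59 CPM in pregnancy and 18.2 ± 3.02 CPM in the cycle (adjusted p = 0.100). SCD (100060485), which desaturates stearate to oleate, had 94.95, 66.1, 134 and 113 CPM in the pregnant libraries, against 104.5, 124, 135 and 199.5 CPM in the cyclic libraries of mares 1 to 4. Its log2 ratios were -0.91 in mare 2 and -0.82 in mare 4 but -0.14 in mare 1 and -0.01 in mare 3. The spread of SCD was wide (log2 fold change -0.47 ± 0.18, SE; adjusted p = 0.145) and passed by DESeq2 alone (adjusted p = 0.0208).

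**Figure D2:**
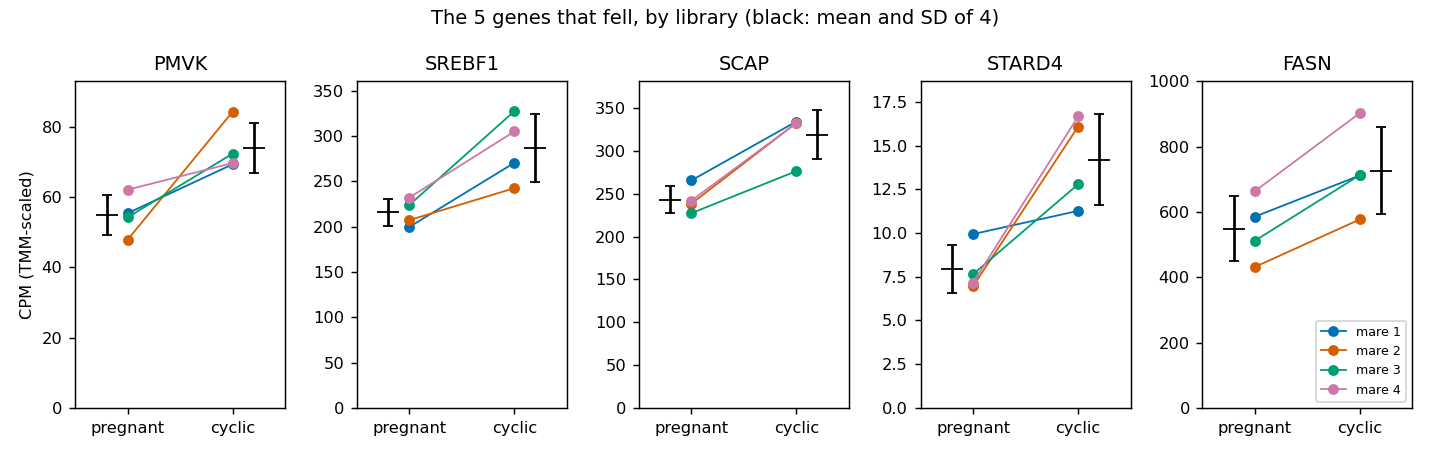
CPM of the 5 genes that fell, with the pregnant library at the left and the cyclic library at the right of each panel, a line per mare and the mean ± SD of 4 in black; axes start at 0. Groups do not overlap for PMVK, SREBF1, SCAP and STARD4, while FASN shows nearly parallel lines at different heights.

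Every pregnant library lay below every cyclic library for 4 of the 28 genes (PMVK, SREBF1, SCAP and STARD4), and 4.73% of all genes tested showed this. The opposite separation held for 1 of the 28, FDFT1, against 6.00% of all genes tested. A lower value in each of 4 mares was seen for 12 of the 28 genes and for 19.6% of all genes tested.

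In the mevalonate arm, which leads from acetyl-CoA to farnesyl diphosphate, 1 of 6 genes fell and 5 did not pass. PMVK (100062963), the phosphomevalonate kinase, had 55.4, 47.8, 54.2 and 62.0 CPM in the pregnant libraries of mares 1 to 4, against 69.3, 84.3, 72.3 and 69.7 CPM in their cyclic libraries. The gap was widest in mare 2 and narrowest in mare 4 (log2 ratios -0.81 and -0.17), and the groups did not overlap. Its log2 fold change was -0.43 ± 0.10 (SE; adjusted p = 0.0204). The call of PMVK was near the threshold. It was lost without mare 1 (0.0641), without mare 3 (0.0628), without the mare block (0.0616) and with library totals in place of TMM (0.0621).

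The neighbours of PMVK in the chain had smaller differences. MVK (100066619), the mevalonate kinase that acts just before it, averaged 13.6 ± 3.61 CPM in pregnancy and 12.5 ± 3.67 CPM in the cycle, and MVD (100049914), the decarboxylase just after it, averaged 26.9 ± 3.08 CPM in pregnancy and 27.1 ± 4.33 CPM in the cycle. The 95% interval of the log2 fold change was -0.15 to 0.41 for MVK and -0.19 to 0.17 for MVD. HMGCS1 (100065037), which makes HMG-CoA and is a classical target of SREBP-2, averaged 67.5 ± 8.86 CPM in pregnancy and 73.9 ± 13.7 CPM in the cycle (adjusted p = 0.283). ACAT2 (100058892), the cytosolic thiolase at the start of the chain, averaged 45.4 ± 5.15 CPM in pregnancy and 52.3 ± 3.46 CPM in the cycle (adjusted p = 0.106). FDPS (100063641), which makes farnesyl diphosphate, averaged 31.8 ± 5.12 CPM in pregnancy and 29.9 ± 5.97 CPM in the cycle (adjusted p = 0.551). PMVK was the 1 member of this arm that passed, and neither MVK nor MVD passed in any of 12 alternatives.

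In the sterol arm, from farnesyl diphosphate to cholesterol, 0 of 11 genes rose and 0 fell. By edgeR at an unadjusted p under 0.05, 1 was lower (SC5D) and 1 higher (FDFT1), beside 15.1% and 15.5% of all genes tested, and DESeq2 and limma-voom called 0 of the 11. FDFT1 (100060929), the squalene synthase at the entry to the arm, had 47.8, 46.3, 58.6 and 46.7 CPM in the pregnant libraries, against 33.1, 44.1, 41.4 and 45.0 CPM in the cyclic libraries of mares 1 to 4. It was higher in 4 of 4 mares, by little in mares 2 and 4 (log2 ratios 0.07 and 0.05), and its log2 fold change was 0.29 ± 0.10 (SE; adjusted p = 0.0806). SC5D (100063543), a sterol desaturase near the end of the chain, had 130, 102, 137 and 175 CPM in the pregnant libraries, against 161, 149, 148 and 186.5 CPM in the cyclic libraries. It was lower in 4 of 4 mares (log2 fold change -0.26 ± 0.09, SE; adjusted p = 0.0676), and passed in 1 of 12 alternatives, with no filter on low counts (0.0499).

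The remaining 9 sterol enzymes had log2 fold changes between -0.45 and 0.06. SQLE (100067615), the squalene epoxidase and a rate-setting step, averaged 49.6 ± 9.47 CPM in pregnancy and 55.3 ± 9.42 CPM in the cycle (95% interval -0.41 to 0.09). LSS (100055292), which closes the sterol rings to lanosterol, averaged 55.5 ± 6.41 CPM in pregnancy and 66.5 ± 10.5 CPM in the cycle (adjusted p = 0.167), and passed without mare 3 (0.0497). CYP51A1 (100050921), the lanosterol demethylase, averaged 87.0 ± 6.28 CPM in pregnancy and 101 ± 19.5 CPM in the cycle (adjusted p = 0.257). These 3 enzymes had lower means in pregnancy, with overlapping groups. MSMO1 (100061552), which removes the next methyl groups, averaged 67.0 ± 14.9 CPM in pregnancy and 64.8 ± 8.96 CPM in the cycle, with a log2 ratio of 0.65 in mare 3 and -0.30 to 0.08 in the others. NSDHL (100063648), its partner dehydrogenase, averaged 46.7 ± 2.17 CPM in pregnancy and 45.0 ± 4.53 CPM in the cycle. DHCR7 (100061433), the last reductase of 1 branch, averaged 78.8 ± 11.4 CPM in pregnancy and 76.2 ± 5.04 CPM in the cycle. MSMO1, NSDHL and DHCR7 thus had slightly higher means in pregnancy, none past the threshold. EBP (100051672), a sterol isomerase, averaged 19.0 ± 0.919 CPM in pregnancy and 19.8 ± 2.84 CPM in the cycle. TM7SF2 (100056588), a sterol reductase, averaged 61.7 ± 9.99 CPM in pregnancy and 66.4 ± 8.49 CPM in the cycle. HSD17B7 (100059061), a ketoreductase of the same chain, rested on 12 to 48 reads per library and had 1.72 ± 0.547 CPM in pregnancy and 2.33 ± 0.602 CPM in the cycle (adjusted p = 0.216). For 15 of the 17 enzymes of both arms the 95% interval lay within a 1.5-fold change in either direction. The exceptions were PMVK and HSD17B7.

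Within-mare ratios of the sterol arm differed between mares. The median log2 ratio of its 11 genes was 0.01 in mare 1, -0.26 in mare 2, 0.09 in mare 3 and -0.29 in mare 4, with 5, 8, 2 and 10 of the 11 genes lower in pregnancy. Medians over all genes tested were near 0 in every mare, from -0.01 to 0.01. The 5 fatty acid enzymes were lower in each mare, with medians of -0.14, -0.42, -0.12 and -0.44 in mares 1 to 4. Picked after their values were seen, SCD, LSS, CYP51A1 and MSMO1 had ratios of -0.91 to -0.29 in mares 2 and 4, while in mares 1 and 3 their ratios lay between -0.14 and 0.65. With 1 pair per mare, this difference between mares in the response was not tested.

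**Figure D3:**
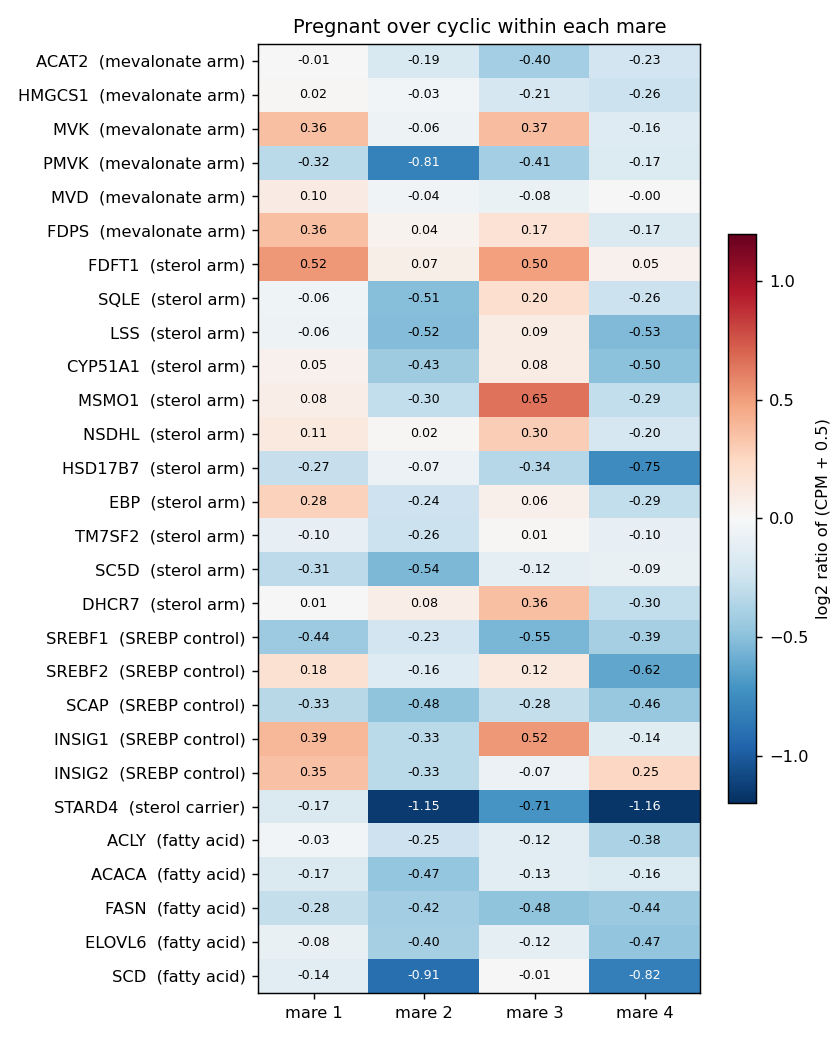
Within-mare log2 ratio of pregnant over cyclic CPM (0.5 CPM added to each) for the 28 genes in rows and the 4 mares in columns; blue is lower and red higher in pregnancy. The fatty acid rows and those of PMVK, SREBF1, SCAP and STARD4 are below 0 in every column, SCD only slightly in mares 1 and 3, while most sterol arm rows are blue in mares 2 and 4 and pale or red in mare 3.

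The standing difference between mares, taken over both states, was tested in the same fit. It passed for 5 of the 28 genes, a share near the 15.9% of all genes tested, so the number of calls does not set these genes apart. HMGCS1 was lowest in mare 1, with 54.6 CPM in pregnancy and 54.0 CPM in the cycle, against 69.3 to 74.5 CPM in pregnancy and 76.1 to 83.0 CPM in the cycle in the other mares (adjusted p = 0.0245). MVK was lowest in mare 2, at 8.96 CPM in pregnancy and 9.36 CPM in the cycle, and had its highest mean in mare 4, at 15.5 CPM in pregnancy and 17.3 CPM in the cycle (adjusted p = 0.0315). TM7SF2 was highest in mare 3, at 76.3 CPM in pregnancy and 75.6 CPM in the cycle (adjusted p = 0.0412). ACACA had its highest mean in mare 1 and its lowest in mare 2, a 1.42-fold span (adjusted p = 0.0200). FASN had its highest mean in mare 4 and its lowest in mare 2, a 1.55-fold span (adjusted p = 0.0221). Each of these calls was lost on leaving out a mare, with p of 0.981 for HMGCS1 and 0.12 for ACACA without mare 1, 0.121 for MVK without mare 2, 0.27 for TM7SF2 without mare 3 and 0.122 for FASN without mare 4. MVK was also lost without mare 1 or mare 4, and FASN without mare 2 (0.0902). TM7SF2 passed in 5 of 11 alternatives and was also lost without mare 1 or mare 4, by DESeq2 (0.0514), by limma-voom (0.0533) and at equal depth (0.0675).

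**Figure D4:**
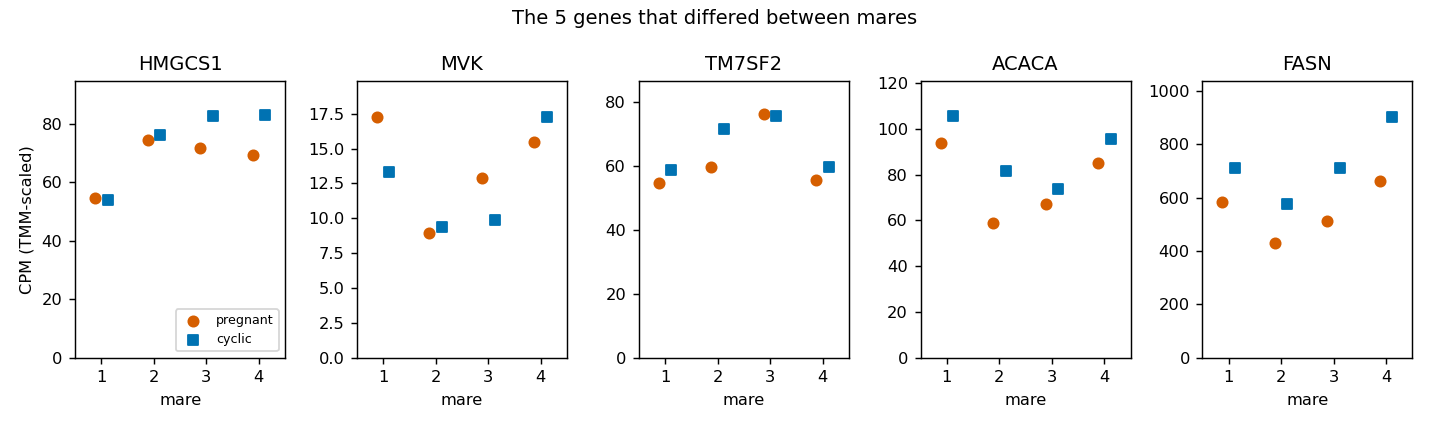
CPM of the 5 genes that differed between mares, by mare, with the pregnant library as a circle at the left and the cyclic library as a square at the right; axes start at 0. The low HMGCS1 values of mare 1 (54.6 CPM in pregnancy and 54.0 CPM in the cycle) and the low FASN values of mare 2 (432 CPM in pregnancy and 577 CPM in the cycle) are seen in both states.

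By the mean of both its libraries, mare 1 was the lowest of the 4 mares for 11 of 17 mevalonate and sterol arm genes and the highest for 0, while over all genes tested it was lowest for 25.6%. The test between mares passed for 3 of these 17 genes, again a share near the 15.9% of all genes tested. The pregnant library of mare 1 was the shallow library and was the lowest of the pregnant libraries for 7 of the 17 genes, beside 24.0% of all genes tested. That of mare 2 was the lowest for 6, beside 25.3% of all genes tested. The cyclic library of mare 1, of ordinary depth at 16.2 M reads, was the lowest of the cyclic libraries for 11 of the 17, beside 25.1% of all genes tested. The pregnant library of mare 3 was the highest of its group for 12 of the 17 genes, and the share of all genes tested for this rank was not computed. Of the squared variation in log2 CPM, the median share held by the mare was 49.1% over the 28 genes and 54.7% over all genes tested, and that held by the state was 21.3% and 16.0%. These shares are raw, and the mare has 3 terms in the fit against 1 for the state. The share of the mare is therefore not comparable in size with that of the state.

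Other genes of the pathway were read from 9 lists of neighbouring functions. Of 5 further sterol enzymes tested, 1 rose and 1 fell, beside 8.53% and 8.19% of all genes tested. ERG28, known from yeast as a scaffold of sterol enzymes, fell (log2 fold change -0.26 ± 0.07, SE; adjusted p = 0.0413), and FAXDC2 rose (0.25 ± 0.07; adjusted p = 0.0404), and both calls were lost on leaving out each of the 4 mares. Of 10 genes of the isoprenoid branches, 1 fell (10.0%, near the 8.19% of all genes tested) and 9 did not pass. GGPS1 (100050954), which makes geranylgeranyl diphosphate and fell, averaged 34.6 ± 5.36 CPM in pregnancy and 46.5 ± 6.75 CPM in the cycle (adjusted p = 0.00681).

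Among 12 genes of SREBP processing and sterol-driven protein breakdown, 1 rose and 1 fell. Each is 8.33% of the list, near the 8.53% and 8.19% of all genes tested. USP20, a deubiquitinase, rose 1.26-fold (adjusted p = 0.00800). PAQR3, a Golgi protein that binds SCAP, fell (log2 fold change -0.35 ± 0.09, SE; adjusted p = 0.0234) and lost its call without mare 1, 2 or 4 (6 of 12 alternatives kept it). Among 21 genes of sterol uptake, storage, efflux and oxidation, 6 rose and 1 fell, a share of risers of 28.6% beside 8.53% of all genes tested. VLDLR (100050907), a lipoprotein receptor, had 7.46, 6.45, 6.19 and 4.80 CPM in the pregnant libraries, against 2.38, 1.26, 2.11 and 1.18 CPM in the cyclic libraries of mares 1 to 4. Every pregnant value was above every cyclic value, and VLDLR rose 3.65-fold on 19 to 110 reads per library (adjusted p = 6.08e-04). NR1H3 (100051253), the oxysterol receptor LXR alpha, rose 1.36-fold (60.2 ± 10.0 CPM in pregnancy and 44.2 ± 4.81 CPM in the cycle; adjusted p = 0.00329), and LIPA (100071626), the lysosomal acid lipase that frees cholesterol from its esters, rose 1.48-fold (adjusted p = 0.00419). CH25H, a sterol hydroxylase that makes an oxysterol, rose 3.38-fold on 6 to 29 reads per library (adjusted p = 0.00425). The receptor LRP1 and the sterol hydroxylase CYP27A1 made up the 6 that rose (log2 fold changes 0.40 and 0.61), and NPC2, a lysosomal cholesterol binder, fell (-0.49). LRP2, a further receptor of this list, did not pass (log2 fold change -1.16, adjusted p = 0.274), though every pregnant value lay below every cyclic value. LRP1, CYP27A1, NPC2 and LRP2 were named after their values were seen. Of 14 sterol carriers other than STARD4, STARD5 rose 1.49-fold (adjusted p = 0.00237) and SCP2 fell (log2 fold change -0.41 ± 0.08, SE; adjusted p = 0.00801). The riser and the faller are each 7.14% of this list, near the shares over all genes tested.

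Beyond the 5 enzymes above, 24 further genes of fatty acid synthesis were tested, of which 6 fell (25.0%, beside 8.19% of all genes tested) and 18 did not pass. At an unadjusted p under 0.05 by edgeR, 7 of the 24 were lower and 5 higher, beside 15.1% and 15.5% of all genes tested. THRSP (100051297), a nuclear protein that promotes lipogenesis in liver and mammary gland, had 4.57, 7.41, 3.09 and 11.1 CPM in the pregnant libraries, against 8.44, 26.5, 7.70 and 24.9 CPM in the cyclic libraries of mares 1 to 4. The groups overlapped, but THRSP fell in every mare (log2 fold change -1.33 ± 0.15, SE; adjusted p = 8.97e-04). ACACB (100066740), the acetyl-CoA carboxylase isoform at the mitochondrial surface, averaged 284 ± 40.4 CPM in pregnancy and 430 ± 44.2 CPM in the cycle, with no overlap (adjusted p = 0.00242). The elongases of long acyl chains ELOVL2 and ELOVL3 fell to 0.642 and 0.602 of their cyclic level (adjusted p = 0.00229 and adjusted p = 0.00839), and the elongase ELOVL5 and the desaturase FADS2, named after their values were seen, made up the 6. In the mitochondrial synthesis pathway 6 of 6 genes did not pass, with MECR at 103 ± 4.36 CPM in pregnancy and 100.4 ± 1.75 CPM in the cycle, and HSD17B8 at 33.7 ± 3.44 CPM in pregnancy and 34.8 ± 2.80 CPM in the cycle.

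Of 20 genes of acyl activation and glycerolipid metabolism, 1 rose (5.0%) and 2 fell (10.0%), near the 8.53% and 8.19% of all genes tested. ACSL3 (100056656), an acyl-CoA synthetase of the endoplasmic reticulum and lipid droplets, averaged 91.3 ± 27.2 CPM in pregnancy and 164 ± 40.4 CPM in the cycle (log2 fold change -0.86 ± 0.07, SE; adjusted p = 2.91e-04). PLIN2, a coat protein of lipid droplets, fell (adjusted p = 0.0451), although it was lower in only 3 of 4 mares, and its call was lost without mare 1 (0.19), 2 or 3. MGLL, a monoglyceride lipase, rose 1.89-fold (adjusted p = 0.0333), and this was lost without mare 3 or mare 4 (0.133). Of 20 genes of fatty acid oxidation, 3 fell (15.0%, beside 8.19% of all genes tested) and 17 did not pass. Those that fell were the receptor PPARA (log2 fold change -0.38), the dehydrogenase ACADL (-0.50) and the electron carrier subunit ETFB (-0.26), with adjusted p from 0.00998 to 0.0249, and each lost its call on leaving out at least 1 mare. Without the mare block, VLDLR, CH25H and ACACB were the only genes named by the rule from these lists that passed (adjusted p = 0.0212, 0.0249 and 0.0404). The 9 lists share no gene with the 28.

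**Figure D5:**
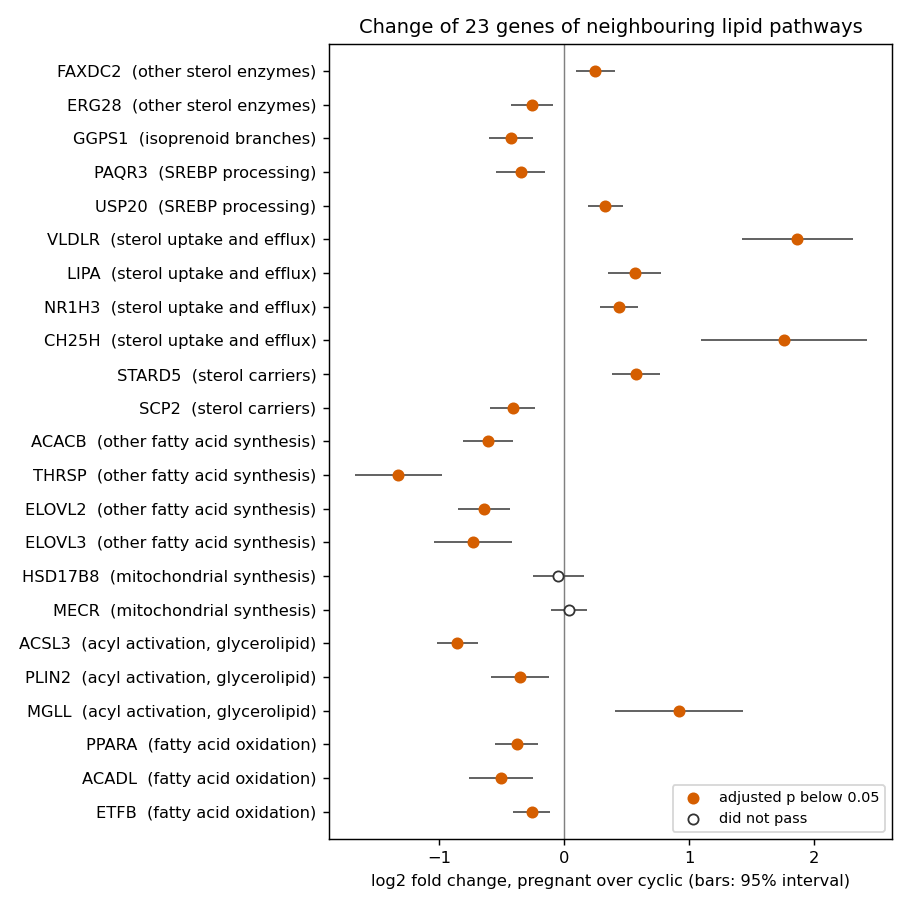
Log2 fold change of 23 genes of neighbouring lipid pathways, pregnant over cyclic, with 95% intervals; filled points passed at an adjusted p below 0.05. They are at most 4 called genes per list with the smallest p, or the 2 most abundant where none was called, so other uncalled genes are not shown; THRSP, at -1.33, is the lowest and VLDLR, at 1.87, the highest.

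Markers of the cells in the biopsy moved in the same comparison, in which 8.53% of all genes tested rose and 8.19% fell. Of 10 epithelial markers tested, 2 fell (KRT7 and KRT18) and 8 did not pass, and the summed level of the 10 was 1782 to 2103 CPM in the pregnant libraries and 1933 to 2372 CPM in the cyclic libraries, lower in pregnancy in 3 of 4 mares. Of 10 endothelial markers, 10 rose (summed 780 to 1283 CPM in the pregnant and 429 to 597 CPM in the cyclic libraries). So did 5 of 8 smooth muscle markers. Their summed levels overlapped, at 552 to 863 CPM in the pregnant and 349 to 588 CPM in the cyclic libraries. Of 9 stromal markers 5 rose. Their summed levels also overlapped, at 3886 to 4281 CPM in the pregnant and 3098 to 4714 CPM in the cyclic libraries. The stromal sum includes COL1A1 and COL1A2, picked after their values were seen, with means of 1384 and 1454 CPM. They were the 2 stromal markers with a log2 fold change below 0 (-0.15 and -0.17), and neither passed. The other 7 were higher in pregnancy in 4 of 4 mares, as were 2947 of all 15342 genes tested. Of 9 T and NK cell markers 3 rose, and of 4 tested B and plasma cell markers 2. These 2, CD79A and BLK, rest on 4 to 35 and 2 to 24 reads per library. Of 8 macrophage markers 1 rose (12.5%) and of 7 ciliated cell markers 1 (14.3%), shares not far from that of all genes tested. The 4 tested mast cell and granulocyte markers did not pass. Fat cell markers were nearly absent, with 5 genes summing to 0.592 to 1.49 CPM in the pregnant and 0.186 to 0.621 CPM in the cyclic libraries and LEP at 0 reads. A count of 0 allows up to 3 reads, or 0.306 CPM in the shallowest library and 0.180 to 0.194 CPM in the others, a limit that covers counting error only. Of the red cell genes ALAS2 and SLC4A1 were at 0 reads, and GYPC, which other cells also express, was the 1 tested and rose. The part of these shifts in the changes of the lipid genes was not tested.

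The library kit as described does not mark the strand, so reads from sequence that overlapping genes share cannot be told apart. In the RefSeq table of the TB-T2T assembly the span of ACAT2 overlaps that of TCP1, DHCR7 that of NADSYN1, NSDHL that of CETN2 and STARD4 that of CAMK4. CAMK4 had a mean of 1.32 CPM beside 11.1 CPM for STARD4, while TCP1, NADSYN1 and CETN2 had means of 72.9, 61.6 and 34.7 CPM. Whether the shared spans hold exons was not examined. How far they affect the values of ACAT2, DHCR7, NSDHL and STARD4 is not known. Of the other genes that fell, FASN overlaps CCDC57, SCAP an unnamed protein-coding gene and a pseudogene, and PMVK a long non-coding RNA, none of them analysed here, and SREBF1 holds the microRNA gene MIR33B, with a mean of 0.0584 CPM.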

How the data were processed

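Messenger RNA was sequenced from 8 endometrial biopsies, 4 pregnant and 4 cyclic. Per the labels' protocols, poly(A) libraries were made from 5 µg of RNA with integrity numbers of 8.3 to 9.2. The authors deposited raw read counts per NCBI Gene ID. The submitters' processing notes list Trimmomatic 0.32.2 and HISAT2 2.0.3, while build, annotation and counter were not given in the sources used here. A further table deposited by the authors holds scaled signal, which equals TMM-scaled CPM of 14037 genes above 2 CPM in 2 or more libraries (100% of values within a relative tolerance of 1e-06). It served only for that check. There were 0 unused value columns.

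Symbols came from a RefSeq table of the TB-T2T assembly, which matched 21420 of 24942 IDs (85.9%). The members and lists were chosen with earlier results of these data known. Some genes of the pathway lists are not reported here and are left out of the lists' counts. No sequence is printed, as the table holds none.

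In R 4.3.3, edgeR 4.0.16 kept 15342 genes (filterByExpr, minimum count 10), scaled libraries by TMM and tested pregnancy by robust quasi-likelihood F-test with the mare as a block, adjusted by Benjamini-Hochberg. The same fit tested the 3 mare terms. The series' design text says that both biopsies came from every mare, and deviations of same-mare libraries correlated at 0.54, 0.38, 0.48 and 0.47 across genes. The SE is the log2 fold change divided by the square root of F, and 95% intervals use its degrees of freedom. The fit was tested on simulated counts. Libraries of a group all differed by more than counting noise (lowest chi-square per degree of freedom 24.6). The 28 genes found are all named. From each of 9 pathway lists at most 4 called genes with the smallest p are named, or the 2 most abundant. Alternatives were DESeq2 1.42.0, limma-voom (limma 3.58.1), other scalings and filters, equal depth, no mare block and each mare left out.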

Additional observations from a re-analysis of the deposited data

Results flagged for a closer look

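Of 102 groups of 4 libraries examined (51 genes in both states), 5 held a library far from the other 3, about what chance gives at a rate of 1 in 20. The pregnant library of mare 3 stood apart for 2 sterol arm enzymes, with 58.6 CPM of FDFT1 against 46.3 to 47.8 CPM in the other pregnant libraries and 89.3 CPM of MSMO1 against 58.0 to 60.8 CPM. FDPS had 21.1 CPM in the cyclic library of mare 1, against 31.7 to 33.5 CPM in the other cyclic libraries. SCAP had 276.5 CPM in the cyclic library of mare 3, against 332.5 to 334 CPM in the others, and its call held without mare 3. FAXDC2 had 32.5 CPM in the pregnant library of mare 2, against 45.3 to 47.4 CPM in the others.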

How the results depend on the processing

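Over 12 alternatives, 323 values of the 28 genes kept their direction and side of the threshold or stayed uncalled, 8 lost a call, 5 gained a call and 0 called values changed sign. Without the replicate block for the mare, 1 gene of the 28 was lower, and over all genes 268 were higher and 121 lower. Leaving out each mare in turn gave 3 to 5 lower genes and 1 to 5 genes that differed between mares. Over all genes, leaving out each mare gave 653 to 1050 higher, 613 to 1007 lower and 1103 to 2049 that differed between mares, the lowest of each without mare 1. Library totals in place of TMM changed the balance of calls over all genes to 1416 higher and 864 lower, against 1309 and 1256. The cause of these shifts was not tested, though every left-out mare removes a pair. Among the genes named, the results of HSD17B7 (12 to 48 reads per library), CH25H (6 to 29), CD79A (4 to 35) and BLK (2 to 24) rest on few reads. Those of VLDLR rest on 19 to 110.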
